A study of Mus musculus with 8 samples.

Results

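Genes that sense and repair DNA damage were examined in monocytes and macrophages of irradiated mouse tumours. The set of 33 genes was drawn up by name and covers homologous recombination, the Fanconi anaemia pathway, end joining, excision and single-strand break repair, the checkpoint kinases, and the sensors and mediators of DNA breaks. Of these, 30 were measured among the 22180 genes of the arrays, each through a probe set row annotated to that gene alone. Apex1 and Fanca each lay on 1 row shared with another gene and are not analysed here, and Xrcc2 was not matched to a row.

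Each of the 8 Affymetrix arrays held RNA of 1 mouse. The hosts were 8-week-old female C57BL/6 mice carrying a subcutaneous tumour of the pancreatic cancer line 152, grown for 14 days. All tumours came from this 1 line, which derives from spontaneous tumours of mice with the alleles KrasLSL-G12D/+, Trp53LSL-R172H/+ and Pdx1-Cre (KPC), so that these alleles belong to the tumour line in both groups. In 4 mice the tumour received 20 Gy and in the 4 control mice a sham treatment, and CD45+ CD11b+ Ly6Chi cells were sorted 1 day later. The sort's own genes were at like levels in both groups: Ptprc (CD45) was 11.66 ± 0.05 after sham treatment and 11.62 ± 0.09 after irradiation, Itgam (CD11b) at 10.94 ± 0.18 and 11.12 ± 0.12, and Ly6c2 at 11.55 ± 0.42 and 11.76 ± 0.71 (log2 expression, SD, n = 4 each).

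Ionising radiation breaks both strands of DNA and damages bases. ATM and its target CHK2 respond mainly to open breaks, and ATR with its target CHK1 to single-stranded DNA at resected breaks and stalled replication forks. Homologous recombination copies the intact sister strand and is largely confined to replicating cells, whereas end joining seals breaks at any stage of the cell cycle. Human blood monocytes are known to hold little of several of these repair proteins until they mature.

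All values are log2 expression as normalized by the authors, and differences are irradiated minus sham on that log2 scale. None of the 30 genes passed the threshold of an adjusted p of 0.05 in limma, where 0 of all 22180 genes (0%) did and 1347 had an unadjusted p under 0.05. At that unadjusted level 8 of the 30 (26.7%) were lower in irradiated mice, against 4.03% of all genes, and 0 were higher, against 2.05% of all genes. The set was drawn up with earlier results of these data known, so these shares are a description and not a test. The 8 were Atr, Chek1, Xrcc6, Prkdc, Xrcc1, Parp1, Fancd2 and Fanci, which belong to 4 of the 6 routes. Every irradiated mouse lay below every sham mouse for 4 of the 30 (13.3%), Xrcc6, Xrcc1, Fancd2 and Fanci, against 2.56% of all genes. For 0 of the 30 did every irradiated mouse lie above every sham mouse, against 1.12%. The median difference of the 30 was -0.15, beside -0.03 over all genes, and 19 of 30 were below 0 (63.3%), beside 57.8% of all genes.

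These counts moved with the processing and with single mice. After quantile normalization, which forces the same distribution on every array, 7 of the 30 were lower at an unadjusted p under 0.05. The split of all such calls then went from 66.3% lower in the values as deposited to 47.7% lower, with 2.72% of all genes lower and 2.98% higher. The count was 4 of 30 without sham mouse 4 and 4 of 30 without irradiated mouse 3, when 3.36% and 3.8% of all genes were lower. The 4 genes below the threshold in both cases were Atr, Xrcc6, Xrcc1 and Parp1. The median of the 30 was -0.08 without sham mouse 4 and -0.09 without irradiated mouse 2.

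**Figure D1:**
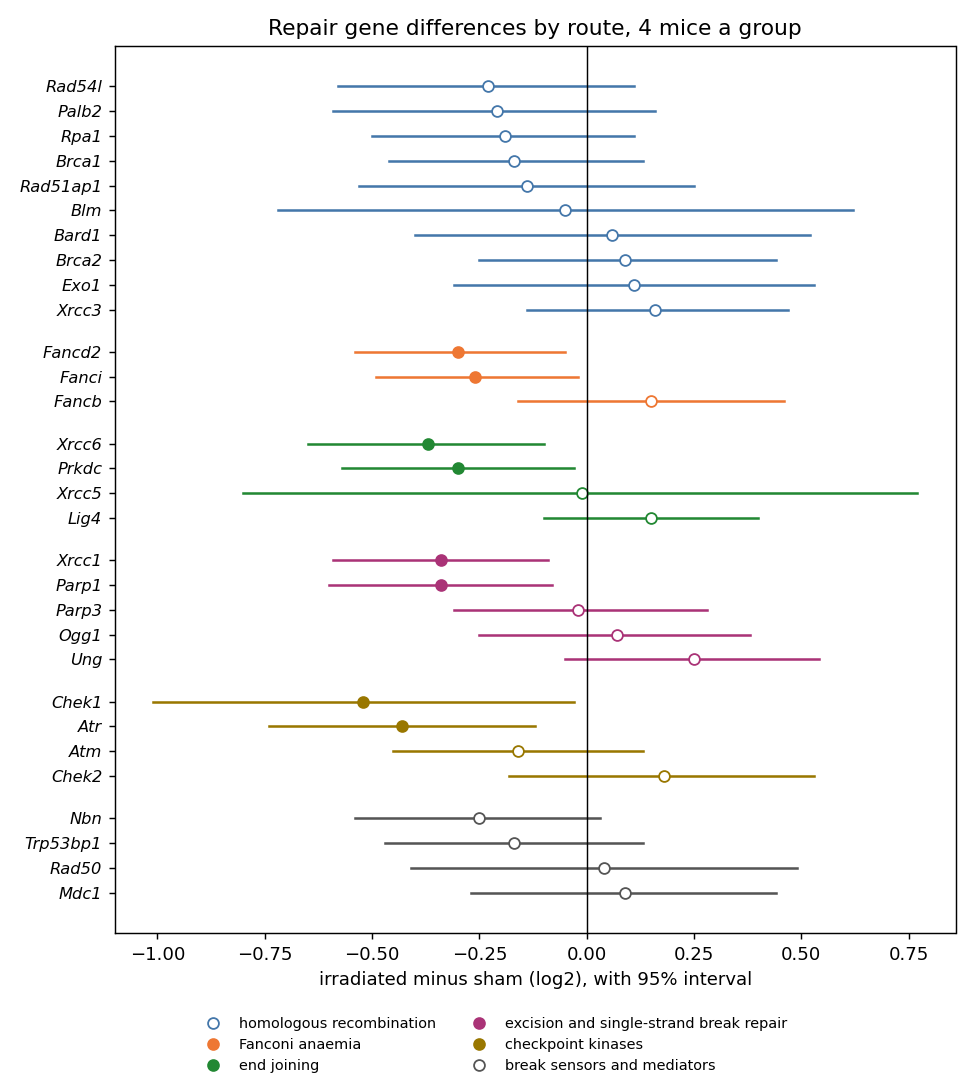
Differences of the 30 measured repair genes, irradiated minus sham on the log2 scale, grouped by route; points are fitted differences, lines their 95% intervals, and filled points have an unadjusted p under 0.05. The 8 filled points all lie below 0, and they fall in the Fanconi anaemia, end joining, excision and checkpoint routes.

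Of the 4 checkpoint kinase genes, Atr and Chek1 were the ones lower at an unadjusted p under 0.05, and the median difference of the 4 was -0.30. Atr, the kinase that senses single-stranded DNA, stood at 6.90, 6.59, 7.09 and 6.86 in sham mice 1 to 4 and at 6.31, 6.22, 6.63 and 6.57 in irradiated mice 1 to 4. Only sham mouse 2 overlapped the irradiated range, lying below irradiated mouse 3. The difference was -0.43 ± 0.14 (SE), a 0.74-fold level, with an adjusted p of 0.819 in limma and a two-sided exact permutation p of 0.0571 (n = 4 each). Atr has a second, dimmer probe set row, which differed by -0.42 ± 0.13 (SE). Chek1, the kinase that ATR activates to hold the cell cycle, stood at 5.18, 4.50, 5.62 and 5.38 in sham mice and at 4.81, 4.60, 4.37 and 4.82 in irradiated mice. Sham mouse 2 was again the lowest of its group, below 3 of the 4 irradiated mice. The difference of Chek1 was -0.52 ± 0.22 (SE; adjusted p = 0.819 in limma) and ranged from -0.74 without sham mouse 2 to -0.37 without sham mouse 3.

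The genes of the break-activated pair did not reach that level. Atm, the kinase recruited to open breaks, stood at 6.47, 6.19, 6.22 and 5.94 in sham mice and at 6.11, 5.83, 6.12 and 6.11 in irradiated mice, a difference of -0.16 (95% interval -0.45 to 0.13). Chek2, its downstream kinase, stood at 6.35, 6.14, 6.06 and 6.10 in sham mice and at 6.12, 6.43, 6.76 and 6.04 in irradiated mice. Irradiated mouse 3 was the highest for Chek2 and the lowest for Chek1. The difference of Chek2 was 0.18 (95% interval -0.18 to 0.53), or 0.03 without irradiated mouse 3. Whether partners differed in their response was tested directly for 6 pairs of genes, chosen after their values were seen. The difference of Chek1 minus that of Chek2 was -0.70 (95% interval -1.37 to -0.02), with a two-sided exact permutation p of 0.114, or 0.343 adjusted over the 6 pairs (n = 4 each). That of Atr minus that of Atm was -0.26 (95% interval -0.59 to 0.06; exact p = 0.229, adjusted p = 0.457). Neither adjusted p passed the threshold, but the smallest possible exact p was 0.0286 before adjustment. After adjustment over the 6 pairs, a gap could not pass on its own, even with its groups fully apart. The adjusted p values therefore cannot decide whether these partners differed. The unadjusted 95% interval left out equal responses for Chek1 and Chek2, but not for Atr and Atm.

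The promoter windows of the checkpoint kinase pair Chek1 and Chek2 are shown because these genes stood on opposite sides of 0. They run from 250 bases before to 50 after the start in RefSeq's GRCm38.p6 annotation, at chr9:36726609-36726908 (minus strand) and chr5:110839733-110840032 (plus strand), and are printed 5′ to 3′. Capitals mark the letters TTTNNCGC, a form that includes E2F sites, and CCAAT, the box bound by NF-Y, each searched on both strands. E2F factors drive many replication and repair genes at the entry to S phase.
Chek1 promoter: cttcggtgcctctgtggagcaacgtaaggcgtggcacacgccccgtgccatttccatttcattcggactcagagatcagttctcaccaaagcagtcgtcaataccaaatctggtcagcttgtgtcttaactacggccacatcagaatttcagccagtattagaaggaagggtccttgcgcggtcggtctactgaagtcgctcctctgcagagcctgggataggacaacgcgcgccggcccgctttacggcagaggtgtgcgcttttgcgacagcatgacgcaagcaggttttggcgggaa
Chek2 promoter: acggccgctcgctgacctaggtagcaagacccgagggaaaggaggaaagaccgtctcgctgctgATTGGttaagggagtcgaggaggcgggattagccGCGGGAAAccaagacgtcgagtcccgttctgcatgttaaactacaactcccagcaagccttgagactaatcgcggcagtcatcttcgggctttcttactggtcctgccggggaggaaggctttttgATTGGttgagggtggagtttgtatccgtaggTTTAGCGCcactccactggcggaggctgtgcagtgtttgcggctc
The Chek2 window held TTTNNCGC at 2 places and CCAAT at 2 places, and the Chek1 window held neither. The Chek1 window ends in tttggcgggaa, where the letters TTTGGCGG miss TTTNNCGC only at the last base. The search covered this form alone, so it does not show that Chek1 lacks an E2F site. Of all 32851 promoter windows of this length, 5.17% held TTTNNCGC and 37.4% held CCAAT. Among the 27 listed repair genes with a window, 6 held TTTNNCGC and 18 held CCAAT. Among the 6 of the 8 lower genes that had a window, TTTNNCGC was found in 1, Xrcc6, and CCAAT in 2, Xrcc1 and Xrcc6. A match describes the letters alone.

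**Figure D2:**
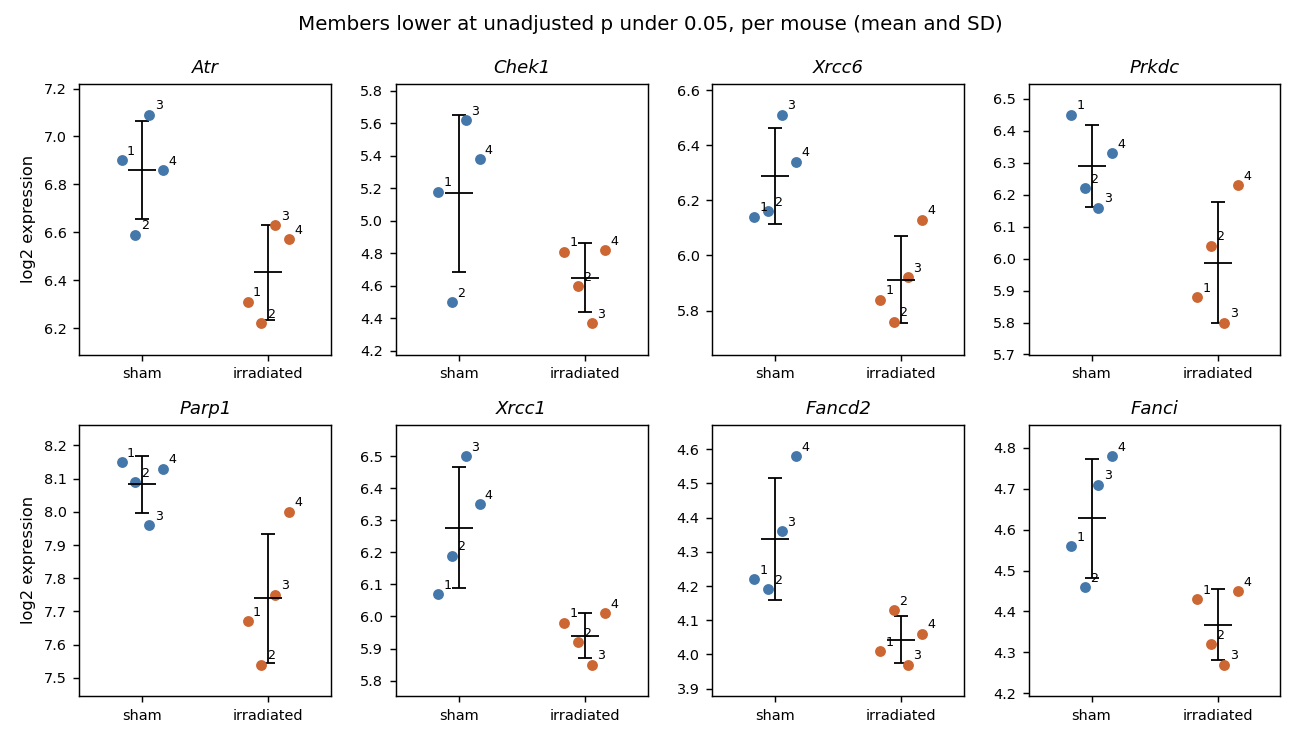
Log2 expression per mouse for the 8 genes with an unadjusted p under 0.05; numbers are mouse numbers, and bars are the mean and SD of 4 mice. The groups are apart for Xrcc6, Xrcc1, Fancd2 and Fanci, while for Atr, Chek1, Prkdc and Parp1 at least 1 irradiated mouse lies within or above the sham range.

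In end joining, 2 of the 4 genes were lower at an unadjusted p under 0.05, and the route's median difference was -0.16, or -0.31 without sham mouse 1 and -0.05 without sham mouse 3. Xrcc6 encodes Ku70, which with Ku80 forms the ring that caps broken ends. It stood at 6.14, 6.16, 6.51 and 6.34 in sham mice and at 5.84, 5.76, 5.92 and 6.13 in irradiated mice. The groups did not overlap, although irradiated mouse 4 came just below sham mouse 1. The difference was -0.37 ± 0.12 (SE), a 0.77-fold level (adjusted p = 0.819 in limma), and it kept an unadjusted p under 0.05 with each of the 8 mice left out in turn. Prkdc encodes the catalytic subunit of DNA-PK, the kinase that Ku recruits. It stood at 6.45, 6.22, 6.16 and 6.33 in sham mice and at 5.88, 6.04, 5.80 and 6.23 in irradiated mice, a difference of -0.30 ± 0.12 (SE; adjusted p = 0.819 in limma). Irradiated mouse 4 lay inside the sham range and the other 3 irradiated mice below it.

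Xrcc5, which encodes the partner subunit Ku80, had the widest spread of all 30 genes. It stood at 4.45, 5.66, 6.51 and 5.49 in sham mice and at 5.86, 5.15, 5.56 and 5.48 in irradiated mice, so that the irradiated range lay within the sham range. Its difference of -0.01 (95% interval -0.80 to 0.77) became 0.31 without sham mouse 3 and -0.37 without sham mouse 1. With that spread, the responses of Xrcc6 and Xrcc5 could not be told apart: the gap was -0.36 (95% interval -1.05 to 0.33; exact permutation p = 0.429, adjusted p = 0.543 over the 6 pairs). Lig4, the ligase that completes end joining, stood at 4.76 to 5.04 in sham mice and 4.89 to 5.23 in irradiated mice, a difference of 0.15 ± 0.11 (SE).

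The promoter windows of the Ku genes are shown because the subunits form 1 complex. They lie at chr15:82016119-82016418 (plus strand) and chr1:72307171-72307470 (plus strand) in GRCm38.p6, with capitals as above.
Xrcc6 promoter: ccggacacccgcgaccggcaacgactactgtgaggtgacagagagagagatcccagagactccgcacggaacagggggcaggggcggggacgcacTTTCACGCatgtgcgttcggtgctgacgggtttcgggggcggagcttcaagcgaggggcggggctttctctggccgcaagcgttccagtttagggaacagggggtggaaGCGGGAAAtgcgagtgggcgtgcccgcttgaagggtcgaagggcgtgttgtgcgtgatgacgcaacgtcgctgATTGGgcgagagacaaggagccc
Xrcc5 promoter: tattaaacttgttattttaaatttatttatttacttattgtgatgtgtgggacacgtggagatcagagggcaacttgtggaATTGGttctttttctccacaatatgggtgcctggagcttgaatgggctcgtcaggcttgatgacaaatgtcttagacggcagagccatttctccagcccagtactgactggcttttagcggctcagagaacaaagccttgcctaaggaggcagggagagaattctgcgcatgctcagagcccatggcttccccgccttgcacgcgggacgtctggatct
The Xrcc6 window held TTTNNCGC starting 155 and 46 bases before the start site and CCAAT 27 bases after it. The Xrcc5 window held CCAAT once, 169 bases before the start site, and no TTTNNCGC. Its letters TTTAGCGG miss that form only at the last base, so the search does not show that Xrcc5 lacks an E2F site.

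In excision and single-strand break repair, Xrcc1 and Parp1 were lower at an unadjusted p under 0.05. The median of the 5 genes was -0.02, became 0.04 after quantile normalization, and ran from -0.09 without sham mouse 1 to 0.05 without sham mouse 4. Parp3 was the middle gene of the 5 each time, so these medians are its own differences and do not describe Xrcc1 and Parp1. Parp1 encodes the polymerase that marks nicked DNA with ADP-ribose chains. It stood at 8.15, 8.09, 7.96 and 8.13 in sham mice and at 7.67, 7.54, 7.75 and 8.00 in irradiated mice. Irradiated mouse 4 lay just above the lowest sham mouse, and the other 3 irradiated mice lay below all sham mice. The difference was -0.34 ± 0.12 (SE), a 0.79-fold level (adjusted p = 0.819 in limma; exact permutation p = 0.0571, n = 4 each). Xrcc1 encodes the scaffold that is drawn to these ADP-ribose chains and holds the ligase in place. It stood at 6.07, 6.19, 6.50 and 6.35 in sham mice and at 5.98, 5.92, 5.85 and 6.01 in irradiated mice. The groups did not overlap, and the irradiated mice were the more uniform, with an SD of 0.07 against 0.19. Its difference was -0.34 ± 0.11 (SE), also a 0.79-fold level, and Parp1 and Xrcc1 both kept an unadjusted p under 0.05 with each of the 8 mice left out in turn.

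The other 3 genes listed in this route did not reach that level. Parp3, a relative of PARP1 that acts at double-strand breaks, ranged from 6.15 to 6.58 in sham mice and from 6.20 to 6.56 in irradiated mice, a difference of -0.02 (95% interval -0.31 to 0.28). The difference of Parp1 minus that of Parp3 was -0.33 (95% interval -0.64 to -0.02; exact permutation p = 0.0857, adjusted p = 0.343 over the 6 pairs). Ung, the glycosylase that removes uracil from DNA, stood at 5.14, 4.66, 5.10 and 5.01 in sham mice and at 5.10, 5.09, 5.41 and 5.29 in irradiated mice. Its difference of 0.25 ± 0.13 (SE) was the highest of the 30 genes and was 0.14 without sham mouse 2. Ogg1, the glycosylase for oxidised guanine, differed by 0.07 ± 0.14 (SE).

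In the Fanconi anaemia pathway, which unhooks crosslinked strands and protects stalled forks, 2 of the 3 measured genes were lower at an unadjusted p under 0.05. Fancd2 and Fanci encode the subunits of the clamp that the pathway's core complex ubiquitinates. Fancd2 stood at 4.22, 4.19, 4.36 and 4.58 in sham mice and at 4.01, 4.13, 3.97 and 4.06 in irradiated mice. Fanci stood at 4.56, 4.46, 4.71 and 4.78 in sham mice and at 4.43, 4.32, 4.27 and 4.45 in irradiated mice. For both genes sham mouse 4 was the highest and sham mouse 2 the lowest of the sham group, irradiated mouse 3 was the lowest of all, and the groups did not overlap. The differences were -0.30 ± 0.11 for Fancd2 and -0.26 ± 0.11 for Fanci (SE; adjusted p = 0.819 in limma for each), and Fancd2 minus Fanci gave -0.04 (95% interval -0.25 to 0.18; exact permutation p = 0.543). Both genes lay under 4.70, the median of all probe set rows, and whether they exceeded background was not tested. Fancb, a core complex subunit, ranged from 3.25 to 3.86 in sham mice and from 3.57 to 3.84 in irradiated mice, a difference of 0.15 ± 0.14 (SE). Fancb was higher at an unadjusted p under 0.05 in the comparison without sham mouse 3.

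Homologous recombination was the largest route, and 0 of its 10 measured genes had an unadjusted p under 0.05. Their differences ran from -0.23 to 0.16 with a median of -0.10, and 6 of the 10 were below 0. The median was -0.17 without sham mouse 2, -0.03 without irradiated mouse 4, and -0.06 to -0.04 without sham mouse 1, 3 or 4 or irradiated mouse 2. Brca1, which steers breaks towards recombination, stood at 3.47, 3.34, 3.76 and 3.79 in sham mice and at 3.46, 3.58, 3.22 and 3.41 in irradiated mice, a difference of -0.17 (95% interval -0.46 to 0.13). Its obligate partner Bard1 differed by 0.06 (95% interval -0.40 to 0.52), and the difference of Brca1 minus that of Bard1 was -0.23 (95% interval -0.76 to 0.31; exact permutation p = 0.457, adjusted p = 0.543 over the 6 pairs). Brca2, a tumour suppressor that acts with PALB2 in recombination, stood at 4.00, 3.89, 4.13 and 3.67 in sham mice and at 4.41, 3.78, 3.98 and 3.89 in irradiated mice. Its difference of 0.09 (95% interval -0.25 to 0.44) rested on irradiated mouse 1 and was -0.04 without it. Brca1, Brca2, Bard1 and the translocase gene Rad54l lay under the median of all rows.

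The groups overlapped for each of the remaining recombination genes. Palb2, the bridge between BRCA1 and BRCA2, differed by -0.21 ± 0.17, Rad54l by -0.23 ± 0.16 and Rad51ap1 by -0.14 ± 0.18 (SE). The difference of Rad51ap1 came from sham mouse 4 at 5.30 and was 0.02 without that mouse. Xrcc3, which acts in strand exchange, differed by 0.16 ± 0.14, and the end-resecting nuclease gene Exo1 by 0.11 ± 0.19 (SE). Blm, the helicase that dissolves recombination intermediates, ranged from 5.04 to 6.09 in sham mice and from 5.21 to 6.48 in irradiated mice, with irradiated mouse 3 far above the other 3 at 5.21, 5.49 and 5.29. Rpa1, the large subunit of the protein that coats single-stranded DNA, differed by -0.19 ± 0.14 in its brighter row and by -0.36 ± 0.15 (SE) in a dimmer one, which had an unadjusted p of 0.0398 in limma and is not counted among the 10.

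**Figure D3:**
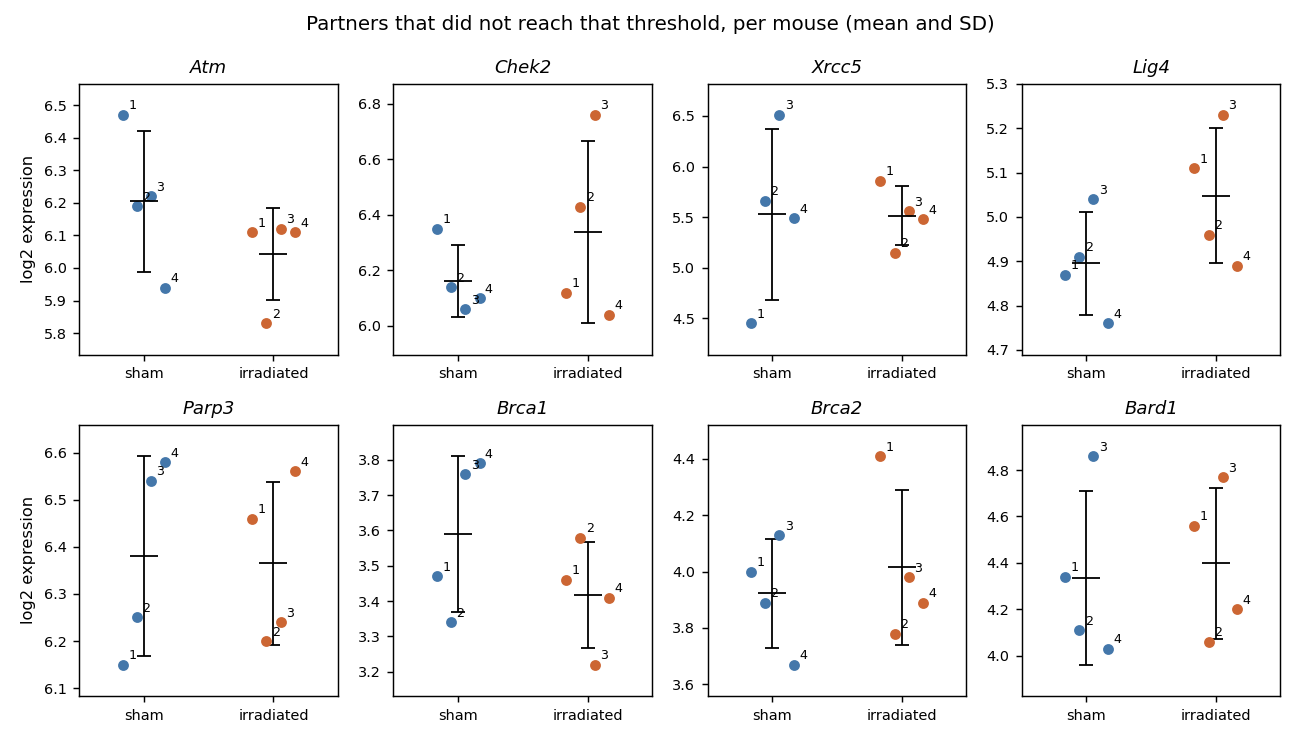
Log2 expression per mouse for 8 partners of the genes above whose differences did not reach an unadjusted p of 0.05; numbers are mouse numbers, and bars are the mean and SD of 4 mice. The groups overlap for each of the 8, and Xrcc5 spans 4.45 to 6.51 within the sham group alone.

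Among the sensors and mediators of breaks, 0 of 4 genes had an unadjusted p under 0.05, and the median was -0.06. That median was -0.18 without sham mouse 2 and 0.03 without irradiated mouse 1, and lay between -0.13 and -0.01 with each of the others left out. Nbn encodes a subunit of the MRN complex, which binds broken ends and activates ATM. It stood at 7.21, 6.93, 7.40 and 7.11 in sham mice and at 7.12, 6.92, 6.86 and 6.74 in irradiated mice. Irradiated mice 2 to 4 lay below all sham mice, and the difference was -0.25 (95% interval -0.54 to 0.03). Rad50, a further MRN subunit, ranged from 6.72 to 7.48 in sham and 6.92 to 7.65 in irradiated mice, a difference of 0.04 (95% interval -0.41 to 0.49). Mdc1, which binds phosphorylated histone H2AX beside a break, differed by 0.09 ± 0.16, and Trp53bp1 (53BP1), which shields ends from resection, by -0.17 ± 0.13 (SE). Irradiated mouse 1 was the lowest for Trp53bp1 at 6.15, and the difference was -0.06 without it.

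Of 106 other repair genes listed by pathway, 94 were measured, and 8 (8.51%) were lower at an unadjusted p under 0.05, 0 higher, against 4.03% and 2.05% of all genes. Their median difference was -0.08, and 71 of 94 were below 0 (75.5%), beside 57.8% of all genes. Every irradiated mouse lay below every sham mouse for 2 of the 94, Mbd4 and Msh3 (2.13%), which is near the 2.56% of all genes. In excision repair Lig3, the ligase that XRCC1 holds, differed by -0.32 ± 0.11 (SE), with 7.30 to 7.60 in sham and 7.06 to 7.37 in irradiated mice. Mbd4, a thymine glycosylase, differed by -0.30 ± 0.11 (SE), with 5.50 to 5.79 in sham and 5.12 to 5.49 in irradiated mice. In checkpoint signalling Topbp1, the activator of ATR, stood at 7.91, 7.69, 8.00 and 7.87 in sham mice and at 7.71, 7.40, 7.47 and 7.60 in irradiated mice, a difference of -0.32 ± 0.11 (SE). Tipin, which helps ATR signal at forks, differed by -0.46 ± 0.19 (SE), with irradiated mouse 1 at 7.36 above all sham mice. Atrip, the partner that ATR needs to find single-stranded DNA, was named after its values were seen and differed the other way, by 0.22 ± 0.14 (SE).

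The RPA complex coats single-stranded DNA in recombination and in checkpoint signalling. Rpa3, the small subunit of RPA, differed by -0.37 ± 0.11 and Rpa2 by -0.30 ± 0.15 (SE), where the latter had an unadjusted p of 0.0625 in the limma fit. In mismatch repair Msh3, which recognises insertion loops, stood at 5.76 to 6.34 in sham mice and 5.47 to 5.75 in irradiated mice, a difference of -0.43 ± 0.14 (SE) without overlap, and Pms2 differed by -0.11 ± 0.12 (SE). In end joining Rif1, an effector of 53BP1, differed by -0.35 ± 0.14 and the polymerase gene Polq by -0.18 ± 0.16 (SE). In the Fanconi anaemia pathway the ubiquitin ligase gene Fancl differed by -0.27 ± 0.12 and Faap100, of the core complex, by 0.24 ± 0.13 (SE). In nucleotide excision repair 0 of 14 genes had an unadjusted p under 0.05, and the smallest p belonged to Ercc6, at -0.30 ± 0.15, and Ercc5, at 0.28 ± 0.14 (SE). The adjusted p of all 94 lay between 0.819 and 0.999 in limma.

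Mouse by mouse, each irradiated animal had repair genes below the whole sham range. Of the 30 genes, 10 lay below all sham mice in irradiated mouse 1, 11 in mouse 2, 11 in mouse 3 and 9 in mouse 4, or 30% to 36.7%, where 22.8% to 24.4% of all genes did. Above all sham mice lay 3, 2, 6 and 4 of the 30, or 10%, 6.67%, 20% and 13.3%, where 15.2%, 19.2%, 16.8% and 15.4% of all genes did. Among the 8 lower genes, irradiated mouse 3 was the lowest of its group for 5 (Chek1, Prkdc, Xrcc1, Fancd2 and Fanci) and irradiated mouse 2 for 3 (Atr, Xrcc6 and Parp1), while irradiated mouse 4 was the highest for 6. In the sham group mouse 2 was the lowest for 16 of the 30 genes and mouse 3 the highest for 13.

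**Figure D4:**
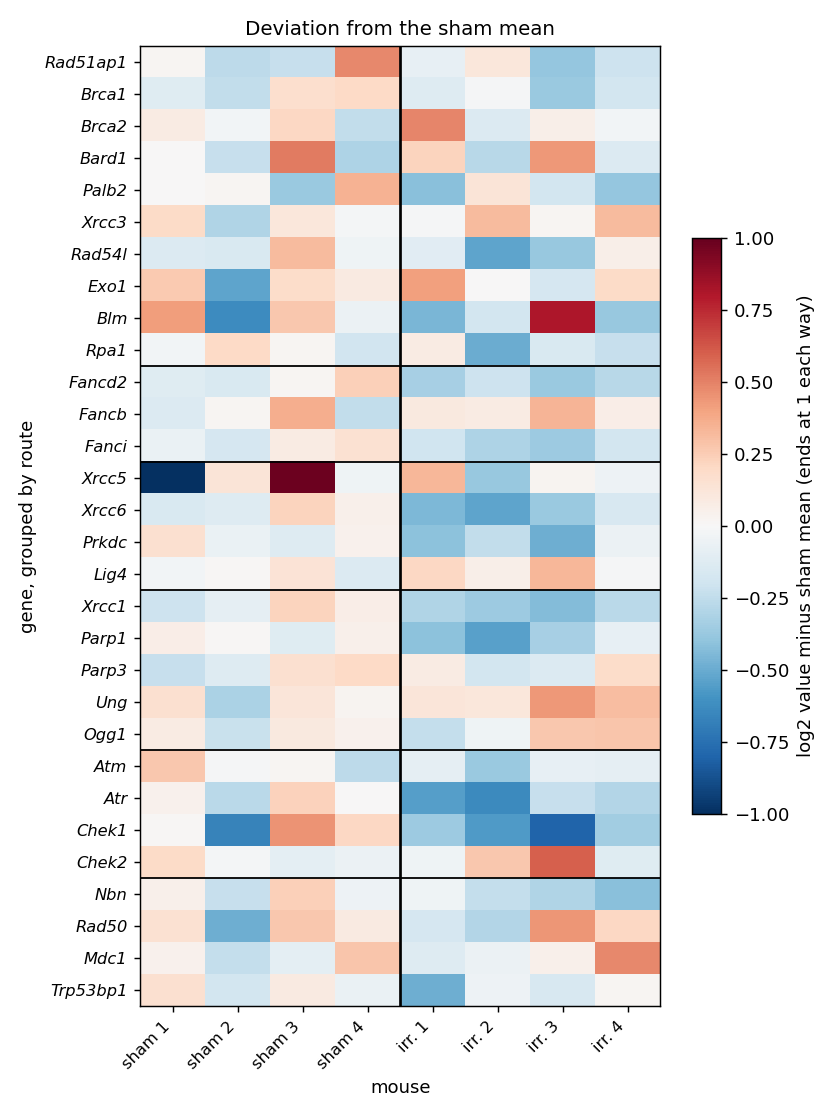
Log2 value of each repair gene on each array minus that gene's sham mean, with routes separated by lines; blue is below and red above the sham mean, and colours end at 1 in each direction. Sham mouse 2 is below the sham mean for most genes, and Xrcc5 and Blm show the widest spread within a group.

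Cell cycle genes and markers of other cell types also varied between mice. The mean of 23 proliferation genes was 6.28, 6.26, 6.76 and 6.36 in sham mice and 6.53, 5.70, 6.16 and 6.44 in irradiated mice; 19 of the 23 differences were below 0. At an unadjusted p under 0.05, 4 of the 23 (17.4%) were lower and 0 higher, against 4.03% and 2.05% of all genes. Irradiated mouse 1 was above 3 of the 4 sham mice for these genes. Irradiated mouse 2 had the lowest proliferation mean, and irradiated mouse 3 also lay below all sham mice. Without irradiated mouse 2, Atr differed by -0.36, Xrcc6 by -0.32, Xrcc1 by -0.33, Parp1 by -0.28, Prkdc by -0.32 and Fancd2 by -0.33. Each of these had an unadjusted p under 0.05 in limma, while Fanci and Chek1 missed that level. In that setting 6 of the 30 were lower and 0 higher, against 3.17% and 1.75% of all genes. Leaving out 1 mouse does not test the part of the cell cycle.

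The mean of 15 T and NK cell markers was 5.20, 7.29, 7.48 and 5.57 in sham mice and 6.47, 5.18, 5.21 and 6.49 in irradiated mice, and 13 of the 15 were below 0. The mean of 14 neutrophil genes ranged from 6.85 to 8.16 over the sham mice and from 5.92 to 7.25 over the irradiated mice, and 11 of the 14 were below 0. These genes did not move together. Camp stood at 3.08, 8.02, 10.10 and 3.34 in sham mice and at 3.08 to 3.69 in irradiated mice, a difference of -2.77 ± 1.35 (SE). Cxcr2, picked after its values were seen, stood at 9.72, 6.95, 7.40 and 9.35 in sham mice and at 6.32, 9.05, 10.04 and 6.69 in irradiated mice. Sham mice 2 and 3 had the highest T and NK cell means, but irradiated mice 1 and 4 also lay above sham mice 1 and 4. A comparison without sham mice 2 and 3 therefore does not even out these markers. In it, 6 of the 30 repair genes were lower and 1, Fancb, was higher at an unadjusted p under 0.05, against 4.31% and 2.37% of all genes. Xrcc6 and Xrcc1 then missed that level, at -0.33 and -0.27, and Chek1 differed by -0.63. With sham mice 1 and 4 alone as controls the groups were apart for 10 of the 30 genes, 8 lower and 2 higher, against 10.5% and 5.42% of all genes. In sorted bulk RNA, fewer cells of a type and less RNA per cell cannot be told apart, and the part of these cell types and of the cell cycle in the repair gene differences was not tested.

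Targets of p53, the transcription factor that ATM and CHK2 stabilise after damage, were read from the same arrays. The mean of 17 of them was 7.20, 7.10, 7.08 and 7.10 in sham mice and 7.38, 7.76, 7.98 and 7.50 in irradiated mice. Cdkn1a, the cell cycle inhibitor p21, differed by 0.39 ± 0.14 and Mdm2, the ligase that limits p53, by 0.65 ± 0.20 (SE; adjusted p = 0.819 in limma for each). Irradiated mouse 3 was the highest for p53 targets and irradiated mouse 1 the lowest of its group. Of the 30 repair genes, irradiated mouse 3 had 6 above all sham mice (Blm, Lig4, Ung, Ogg1, Chek2 and Rad50) and 11 below. These were 20% and 36.7%, against 16.8% and 24.4% of all genes. Irradiated mouse 1 had 3 above (Brca2, Exo1 and Lig4) and 10 below, or 10% and 33.3%, against 15.2% and 22.8% of all genes. Whether these counts go with the p53 targets was not tested.

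**Figure D5:**
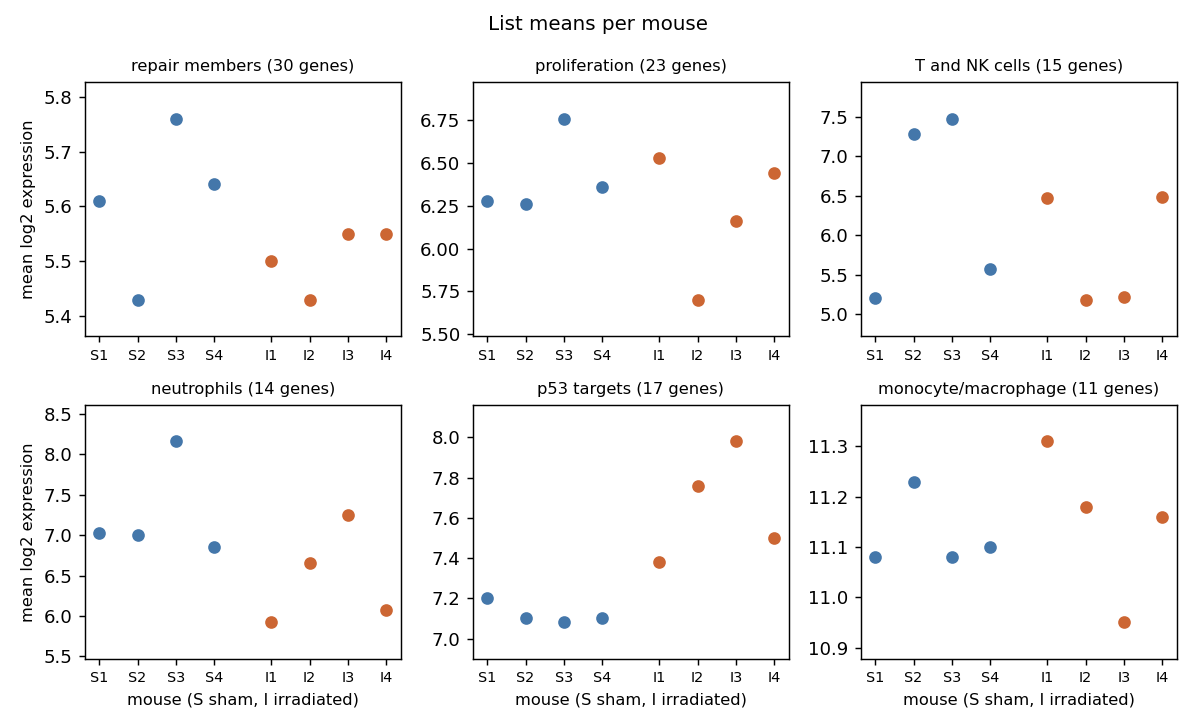
Mean log2 expression per mouse (S sham, I irradiated) over the 30 repair genes and over lists of proliferation, T and NK cell, neutrophil, p53 target and monocyte and macrophage genes. Each panel has its own scale; the groups are apart in the p53 panel and overlap in the others.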

How the data were processed

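RNA (25 ng per mouse) was linearly amplified with ribo-SPIA chemistry and labelled, per the labels' protocols. The authors deposited log2 values, a unit taken here from how far the values range, and RMA and Partek are named in the submitters' processing notes without settings. The genome build behind the probe sets is not given in the sources used here. Array medians lay between 4.68 and 4.73, arrays correlated at 0.976 to 0.988, and their number limits the precision.

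Of 34365 probe set rows, 23521 had 1 gene symbol in the platform annotation, 1814 several and 9030 none. The brightest row was taken for each of 1082 genes with several rows. Groups were compared across all genes with limma (version 3.58.1, R version 4.3.3; two-sided moderated test, Benjamini-Hochberg over 22180 genes, threshold 0.05), a test that was checked on simulated data. Single genes and pairs were also compared by exact permutation over 70 assignments, where the smallest possible p is 0.0286. No filter on dim genes was applied.

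The members and lists were chosen with earlier results of these data known. Values on every array are given for members with an unadjusted p under 0.05 or groups apart, for Atm, Atr, Chek1, Chek2, Brca1, Brca2, Parp1, Prkdc, Xrcc5 and Xrcc6, and for the 2 members with the widest spread; of each other pathway list the 2 genes with the smallest p are named, and genes outside this rule only fill in the account of the members. The alternatives tried were quantile normalization, array medians taken off, dim genes left out, rows averaged per gene, limma's trended and robust variance, the mouse number as a block, each mouse left out in turn, and sham mice 2 and 3 left out together. Promoter windows came from RefSeq (GRCm38.p6). Plots were drawn with matplotlib 3.10.9.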

Additional observations from a re-analysis of the deposited data

Results flagged for a closer look

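In 2 of 60 groups of 4 mice examined, 1 mouse stood apart from the other 3 by more than the 95% limit of Dixon's gap test, which chance alone gives in about 1 in 20 groups. Atm stood at 5.83 in irradiated mouse 2, while the other 3 irradiated mice lay at 6.11 to 6.12. Fancb stood at 3.84 in irradiated mouse 3, while the other 3 lay at 3.57 to 3.60; sham mouse 3 was as high for Fancb, at 3.86.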

How the results depend on the processing

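Under the 15 alternatives, 11 of the 14 repair genes named by rule kept their direction, and the median difference of the 30 stayed below 0, from -0.19 to -0.08 with each mouse left out. With each mouse left out, 4 to 9 of the 30 were lower and 0 to 1 higher at an unadjusted p under 0.05. Over all genes, 3.17% to 4.37% were lower and 1.75% to 2.12% higher, so the count of higher genes is near that share. Without sham mice 2 and 3, 1 of the 30 was higher, where 2.37% of all genes were. With a replicate block on the mouse number 7 of the 8 lower genes kept an unadjusted p under 0.05, Fanci missing it. Over all genes, deviations of same-numbered mice from their group means correlated at -0.28 to -0.14. Such correlations cannot show whether mice of the same number were handled together, and the main comparison used no pairing. Genes with groups apart numbered 2 after removal of dim genes, which drops Fancd2 and Fanci, and 4 to 6 with each mouse left out. The share of all genes was not computed for these settings, so these counts cannot be read as a result about the 30. Groups with fewer mice are also apart more often by chance. Without sham mice 2 and 3 the number was 10, where 10.5% of all genes were apart lower and 5.42% higher. Over all genes, 0 to 1 passed with each mouse left out, the 1 being without irradiated mouse 1. Direction changed for 3 genes near 0: Blm from -0.34 to 0.09 and Brca2 from -0.04 to 0.17 with each mouse left out, and Xrcc5 from -0.37 to 0.31, at 0.54 without sham mice 2 and 3 and 0.00 after quantile normalization. The cause was not tested. The excision and sensor medians, near 0, also took either sign. With 4 mice a group and 7 genes under the median of all rows, a repair gene that missed a threshold is not shown to be unchanged.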
